A study of Mus musculus with 6 samples.

Results

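Fatty acid oxidation and peroxisome genes were followed as a list of 45 genes, chosen by symbol from the 13203 genes of the deposited table, and all 45 had values. The list holds 2 transcriptional regulators, 4 genes of fatty acid activation and uptake, 17 mitochondrial enzymes, 12 peroxisomal enzymes, 1 peroxisomal membrane transporter and 9 peroxins, the proteins that build peroxisomes. RNA came from whole mouse kidneys at stage E17.5, late in gestation, depleted of ribosomal RNA before sequencing. The 3 control kidneys (libraries con1 to con3) were Brg1 flx/flx, with no Cre in their labels, although the series' design calls them wild type. The 3 mutant kidneys (mut1 to mut3) were Six2Cre Brg1flx/flx, so that both groups carried floxed alleles, and effects of Cre itself and of losing Brg1 cannot be told apart. Six2Cre acts in nephron progenitors, the cap mesenchyme cells that give rise to the nephron, whereas stroma, collecting duct, vessels and blood cells arise from other lineages and were in the same samples. Smarca4 encodes Brg1, the motor subunit with which SWI/SNF complexes shift nucleosomes, and the series asks what it does in nephron progenitors.

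Fatty acids are activated to acyl-CoA, carried into mitochondria on carnitine and shortened there by repeated rounds of oxidation, hydration, oxidation and thiolysis, with the electrons passed on to the respiratory chain. Peroxisomes shorten very long and branched chains and bile acid precursors, and hand medium-length products to mitochondria. Peroxins import the peroxisomal enzymes from the cytosol and insert the membrane proteins. The proximal tubule of the kidney is rich in both organelles and draws most of its energy from fatty acids, a capacity that grows as the nephron matures. The nuclear receptor PPAR alpha and its coactivator PGC-1 alpha are known inducers of many of these enzymes.

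Values are normalised coverage in kb, the number of sequenced bases over a gene in kilobases, scaled by the authors to a common library total, and are given as mean ± SD with n = 3 kidneys per group. Unscaled, the libraries held 726 to 1126 Mb in control and 934 to 1209 Mb in mutant. Log2 fold changes compare mutant with control after adding 1 base, not 1 kb, to each deposited value. Each is given with its standard error (SE) from limma. The words "fell", "rose" and "passed" refer to a limma p adjusted over all 13203 genes under 0.05. Smarca4 itself had 434, 419 and 371 kb in control and 316, 333 and 268 kb in mutant, lower in every mutant library (log2 fold change -0.42, SE 0.10, limma adjusted p = 0.00481, and 0.0581 by the authors' deposited p after Benjamini-Hochberg adjustment). Which exons the floxed alleles lose was not given, so whole-gene coverage is a limited check. All 20 proximal tubule markers, 8 podocyte markers and 7 nephron progenitor markers listed had values.

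Of the 45 genes 29 fell, none rose and 16 did not pass, where 24.6% of all genes fell and 21.5% rose, 46.1% in all. At an unadjusted limma p under 0.05 the counts were 30 lower and 1 higher (Acaa2), and 1 gene, Eci2, rose by the authors' deposited p after adjustment. Both regulators and all 4 genes of activation and uptake fell. Of the mitochondrial enzymes 13 of 17 fell, of the peroxisomal enzymes 7 of 12, and of the peroxins 3 of 9. With the authors' deposited p after Benjamini-Hochberg adjustment these 3 counts were 11, 3 and 1, and without con1 or con2 no peroxin fell. That adjustment was made here, and it is meant wherever a value is given with the authors' deposited p. The q-values that the authors deposited were under 0.05 for all 29 genes that fell, the highest being 0.0464 for Pex14. They were also under 0.05 for Pex7 (0.0295), Hsd17b4 (0.0479) and Eci2 (0.00436, higher in mutant). The deposited table holds only genes with at least 1 group mean above 3.4 kb. Of the 45 genes, Acox2 was in it through the control group alone. Without Acox2, 28 of 44 genes fell (24.1% of genes with both means above that limit), and 6 of 11 peroxisomal enzymes. The median log2 fold change was -0.40 for mitochondrial enzymes, -0.29 for peroxisomal enzymes and -0.25 for peroxins, against -0.03 for all genes. Leaving out each library in turn gave medians of -0.45 to -0.37, -0.33 to -0.27 and -0.27 to -0.15 in that order, and it was con1 whose absence gave the peroxins -0.15. The peroxins ranged from -0.39 to 0.17 only. Falls of at least 2-fold occurred in Acox2, Slc27a2, Acaa1b, Acadm and Etfa, 5 of the 45 genes against 6.16% of all genes. Acox2 is counted among them although it was in the table through the control group alone. These 5 are also the members that stand in the authors' deposited list of lower genes, which holds 5.91% of the table and was made from the same libraries. All 3 mutant values lay below all 3 control values in 32 of the 45 genes (29.8% of all genes), above them in 1 (26.5%), and the groups overlapped in 12 (56.4% of all genes did not overlap). The differences between the classes were not tested. For any single gene an exact two-sided permutation test of 3 against 3 values cannot go below p = 0.1.

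**Figure D1:**
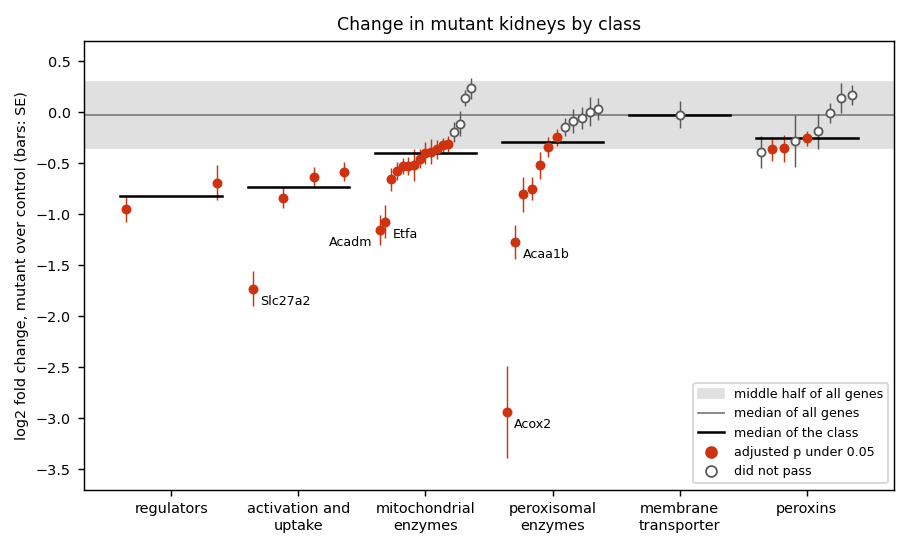
Log2 fold change (mutant over control, y axis) of each of the 45 genes by class, with bars of 1 SE from limma, filled red where the adjusted p was under 0.05. The grey band runs from the lower to the upper quartile of all genes (-0.35 to 0.29). Most points lie below the grey line of the all-gene median, with Acox2 lowest at -2.94, and the highest filled point of any class is negative.

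Markers of several cell types moved with the genotype. All 20 listed proximal tubule markers fell, with a median log2 fold change of -1.83, and their summed coverage was 4981 to 6208 kb in control and 1321 to 1634 kb in mutant. Of 8 measured loop and distal tubule markers 7 fell, all 8 podocyte markers fell, and of 7 nephron progenitor markers 5 fell and 2 rose. The proximal markers Miox and Slc5a12 had mutant means of 2.03 and 2.65 kb, the distal markers Cldn16 and Trpm6 2.78 and 1.12 kb. These genes were in the table through the control group alone, and a gene as low in both groups would not be listed. Of 10 stromal markers 9 rose, with sums of 3695 to 3871 kb in control and 7284 to 9081 kb in mutant, and 6 of 7 measured leukocyte markers rose. Collecting duct markers were mixed (3 of 10 lower, 2 higher, median log2 fold change -0.08), as were those of endothelium (1 of 6 lower, 2 higher, median 0.15), with summed coverage in mutant at 1.12 and 1.15 times the control level. Of 5 measured erythroid markers 3 rose. In whole kidneys fewer cells of a type and less RNA per cell cannot be told apart. The part of this shift in the changes of the 45 genes was not tested. Skeletal muscle, which also burns fatty acids, had 5 measured markers with sums of 15.6, 15.6 and 91.0 kb in con1 to con3 and 19.5, 17.7 and 37.7 kb in mut1 to mut3. Of 4 measured liver markers 3 fell and 1 rose. Their sums were 152 to 227 kb in control and 75.4 to 113.5 kb in mutant. Of the liver markers that fell, Ttr and Fgb were in the table through the control group alone (mutant means of 1.46 and 0.779 kb). Library con3 was the highest control in 21 of the 45 genes, and the share over the whole table was not counted. The summed proximal tubule markers were also highest in con3 (4981, 5260 and 6208 kb in con1 to con3). Why con3 was high was not tested. Without con3, 12 mitochondrial enzymes, 5 peroxisomal enzymes and 2 peroxins fell. Small RNA genes held 1.74 to 2.37% of coverage in control and 0.315 to 0.653% in mutant, and leaving them out of the scaling gave 13, 7 and 4 falls.

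Both regulators fell. Ppara (chromosome 15, 85734983 to 85802819, plus strand, mm10), which encodes the fatty acid receptor PPAR alpha, had 25.9, 32.5 and 38.5 kb in control and 23.5, 16.7 and 19.7 kb in mutant. The groups did not overlap but came close, with con1 just above mut1. The mean went from 32.3 ± 6.32 to 19.9 ± 3.41 kb (log2 fold change -0.69, SE 0.17, limma adjusted p = 0.00626). The call did not hold with the authors' deposited p after Benjamini-Hochberg adjustment (0.0923). Ppargc1a (chromosome 5, 51454250 to 51567726, minus strand), which encodes the coactivator PGC-1 alpha, had 69.5, 72.9 and 90.6 kb in control and 37.4, 44.9 and 37.7 kb in mutant. Every mutant library was far below every control library. It fell by 48.5% (log2 fold change -0.95, SE 0.12, limma adjusted p = 9.66e-05), to 39.998 ± 4.24 kb, and its ratio of 0.515 in the authors' deposited table lies just outside the 0.5 limit of their list.

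Activation and uptake held the second largest fall of the 45 genes. Slc27a2 (chromosome 2, 126552407 to 126588243, plus strand) encodes a very long-chain acyl-CoA synthetase and uptake carrier that is abundant in proximal tubule and liver. Its coverage was 93.5, 95.8 and 148.6 kb in control and 34.3, 28.2 and 37.7 kb in mutant. The 3 mutant libraries lay close together at well under the lowest control, and con3 stood above the other controls. The fall was 3.37-fold, from 112.6 ± 31.2 to 33.4 ± 4.83 kb (log2 fold change -1.73, SE 0.17, limma adjusted p = 1.46e-05), and -1.51 without con3. Of its exon bases 11.2% also lie in the antisense lincRNA Gm26697. Its promoter runs from 250 bases before to 50 bases after the RefSeq start of transcription. It is shown because the gene changed most in this role (RefSeq, GRCm38.p6, chr2:126552774-126553073, plus strand). GENCODE M21 starts the gene further upstream, so the window lies inside the gene coordinates given above. Capitals mark the hexamer AGGTCA that PPAR alpha and other nuclear receptors bind, here on the opposite strand and 220 bases upstream.
Slc27a2: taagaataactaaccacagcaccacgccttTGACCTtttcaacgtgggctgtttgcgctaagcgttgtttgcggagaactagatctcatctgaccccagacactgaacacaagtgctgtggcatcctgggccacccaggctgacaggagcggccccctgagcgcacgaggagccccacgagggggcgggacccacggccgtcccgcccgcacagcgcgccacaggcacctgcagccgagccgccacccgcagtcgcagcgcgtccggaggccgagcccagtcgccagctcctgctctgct

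The long-chain acyl-CoA synthetase genes, whose products trap fatty acids in the cell, fell by less. Acsl3, a synthetase of endoplasmic reticulum and lipid droplets, had 112.3, 110.5 and 98.9 kb in control and 55.9, 66.9 and 57.4 kb in mutant. The groups were well apart, at 0.56 of the control level (log2 fold change -0.84, SE 0.10, limma adjusted p = 5.63e-05). Acsl4, which prefers arachidonic acid, was at -0.63 and Acsl1, a synthetase of mitochondria and endoplasmic reticulum, at -0.59, both with groups that did not overlap.

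**Figure D2:**
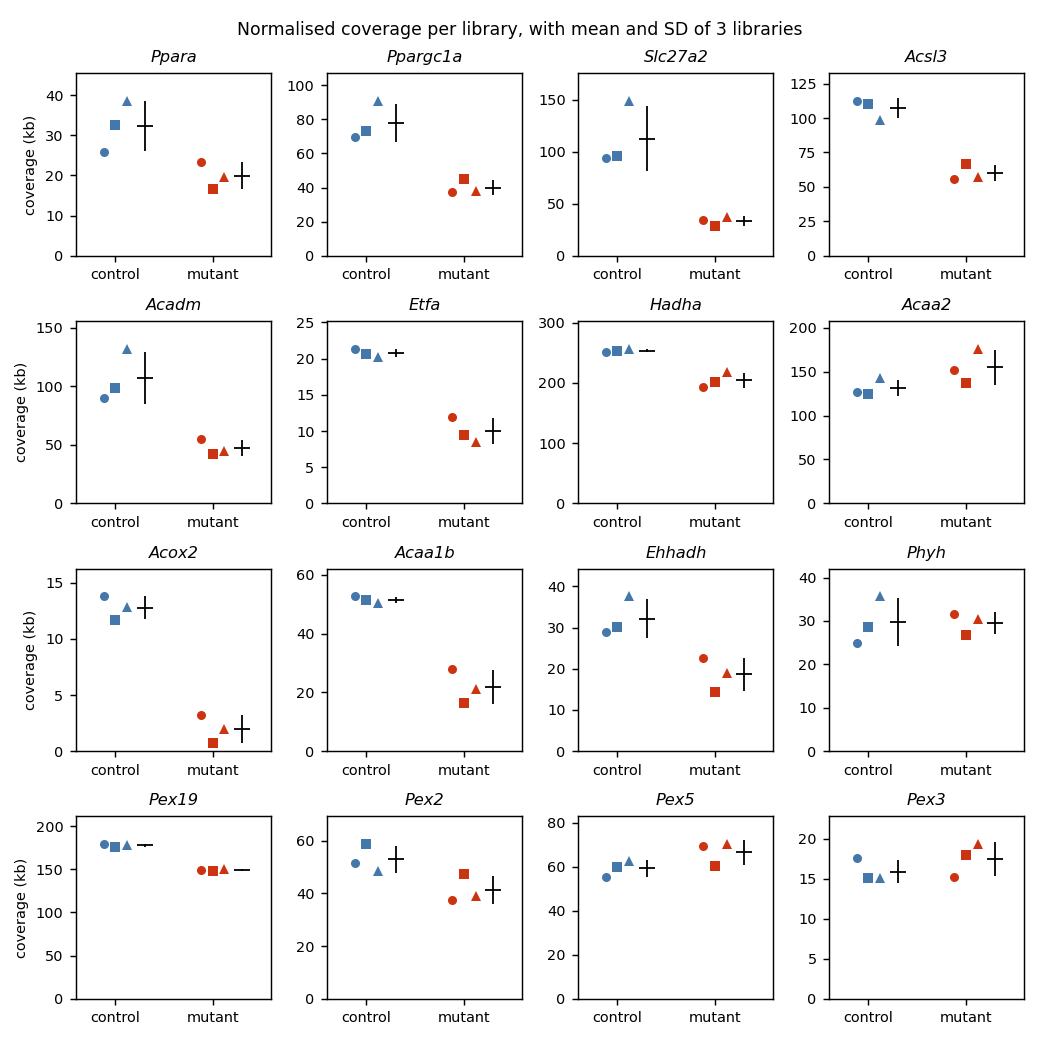
Normalised coverage in kb (y axis, from 0) of 16 of the 45 genes in the 3 control and 3 mutant libraries, with mean and SD beside the points. Circles, squares and triangles are libraries 1 to 3 of each group. The mutant points lie below the control points in Slc27a2 (28.2 to 37.7 against 93.5 to 148.6) and mix with them in Phyh and Pex3.

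Entry into mitochondria is set by the carnitine palmitoyltransferases. Cpt1a, the outer membrane enzyme that limits the rate of entry, had 142.1, 155.3 and 173.6 kb in control and 109.3, 114.3 and 118.6 kb in mutant. All mutant libraries were lower, by 27.3% on average (log2 fold change -0.46, SE 0.09, limma adjusted p = 0.00197). Cpt2, which completes the transfer at the inner membrane, overlapped between groups at 36.6 ± 4.62 and 33.6 ± 2.04 kb and did not pass (-0.12, limma adjusted p = 0.466).

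The acyl-CoA dehydrogenases, which start each round on chains of different length, changed unequally, and 3 of the 4 fell. Acadm (chromosome 3, 153922357 to 153944632, minus strand), which acts on medium chains, had 90.3, 98.3 and 132.2 kb in control and 55.5, 42.5 and 44.7 kb in mutant. The lowest control was well above the highest mutant. The fall was 2.25-fold, from 106.9 ± 22.2 to 47.6 ± 6.95 kb (log2 fold change -1.16, SE 0.15, limma adjusted p = 8.30e-05). Its promoter is given because Acadm fell most among the mitochondrial enzymes (RefSeq, GRCm38.p6, chr3:153944594-153944893, minus strand), with the single AGGTCA hexamer, on the opposite strand and 249 bases upstream, in capitals.
Acadm: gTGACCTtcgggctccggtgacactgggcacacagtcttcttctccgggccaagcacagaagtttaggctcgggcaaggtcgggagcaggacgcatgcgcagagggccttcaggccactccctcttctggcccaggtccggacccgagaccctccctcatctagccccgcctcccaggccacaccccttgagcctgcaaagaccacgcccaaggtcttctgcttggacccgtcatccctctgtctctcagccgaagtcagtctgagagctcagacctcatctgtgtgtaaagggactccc

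Acadvl, for very long chains, had 104.5, 106.5 and 111.3 kb in control and 79.0, 73.99 and 70.9 kb in mutant, with groups well apart (log2 fold change -0.53, SE 0.09, limma adjusted p = 0.000489). In the GENCODE M21 annotation 42.9% of its exon bases also lie in exons of Dvl2 on the opposite strand, and no source says whether counting used strand, so reads of the pair cannot be told apart. Dvl2 did not pass (0.19). Acadl, for long chains, fell by 0.39 on the log2 scale (limma adjusted p = 0.0238), a call lost without con1 (0.084), con3 (0.0841) or mut1 (0.0553), under quantile normalization (0.0588) and with the length trend removed (0.0556). Acads, for short chains, had every mutant library below every control library, at 112.2 ± 6.78 and 98.2 ± 9.49 kb, and did not pass (-0.19, limma adjusted p = 0.119, but 0.0474 without mut1).

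The enzymes of the later steps fell with the exception of Acaa2. Hadh, the dehydrogenase for shorter chains, had 192.2, 205.0 and 204.0 kb in control and 133.5, 136.6 and 146.8 kb in mutant. Its groups were far apart in relation to their spread (log2 fold change -0.53, SE 0.08, limma adjusted p = 0.000284). Echs1, the enoyl-CoA hydratase, had 171.4, 179.7 and 185.4 kb in control and 142.2, 142.9 and 142.5 kb in mutant. The mutant libraries were nearly alike and all lower (-0.33, SE 0.08, limma adjusted p = 0.00481). Acaa2, a mitochondrial ketoacyl-CoA thiolase, had 127.1, 124.6 and 142.3 kb in control and 151.4, 137.1 and 176.0 kb in mutant. Its groups overlapped through con3 and mut2, with higher values in mut1 and mut3. It was the highest of the 45 genes by log2 fold change (0.23, SE 0.10) and did not pass at limma adjusted p = 0.0863, but it passed with array weights (0.0278), with the length trend removed (0.0150) and without mut2 (0.0282).

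Hadha and Hadhb encode the subunits of the trifunctional protein of long-chain oxidation and lie head to head on chromosome 5. Hadha (30118304 to 30155162, minus strand) had 251.4, 253.0 and 256.9 kb in control and 193.9, 201.6 and 217.9 kb in mutant. Hadhb (30155248 to 30184593, plus strand) had 19.3, 20.1 and 18.6 kb in control and 12.98, 11.5 and 16.4 kb in mutant. Both pairs of groups stayed apart, at log2 fold changes of -0.31 (SE 0.08, limma adjusted p = 0.00654) and -0.52 (SE 0.16, limma adjusted p = 0.0194). The call of Hadhb was lost without con1 (0.0550), con2 (0.0681) or mut2 (0.0626) and with the authors' deposited p (0.0594). Per exon base the coverage depth of the control kidneys was 29.1 ± 0.32 for Hadha and 2.93 ± 0.12 for Hadhb. RefSeq places 228 bases in the promoter windows of both. Those shared bases are in capitals in the Hadha window, which is shown as the common upstream region of the pair (RefSeq, GRCm38.p6, chr5:30154931-30155230, minus strand).
Hadha: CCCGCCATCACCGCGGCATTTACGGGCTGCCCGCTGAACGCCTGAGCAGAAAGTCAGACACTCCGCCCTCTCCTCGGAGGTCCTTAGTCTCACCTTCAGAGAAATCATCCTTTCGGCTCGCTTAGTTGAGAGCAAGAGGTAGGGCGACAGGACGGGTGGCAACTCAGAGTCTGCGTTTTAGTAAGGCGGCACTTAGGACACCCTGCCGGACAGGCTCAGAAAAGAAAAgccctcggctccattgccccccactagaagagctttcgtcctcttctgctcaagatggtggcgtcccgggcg

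The auxiliary enzymes, which handle double bonds, fell in 2 of 3 cases. Eci1, a mitochondrial enoyl-CoA isomerase, had 49.3, 52.7 and 50.99 kb in control and 35.1, 34.0 and 28.3 kb in mutant. Decr1, the mitochondrial dienoyl-CoA reductase, had 56.8, 53.9 and 54.8 kb in control and 42.8, 42.8 and 43.0 kb in mutant. Both were lower in every mutant library, at -0.66 (SE 0.11, limma adjusted p = 0.000667) and -0.36 (SE 0.09, limma adjusted p = 0.00736). Eci2, an isomerase found in peroxisomes and mitochondria, had 88.9, 90.6 and 87.5 kb in control and 98.1, 96.97 and 99.4 kb in mutant. It was the only one of the 45 genes with every mutant library above every control library, by 10.3%, and did not pass (0.14, SE 0.08, limma adjusted p = 0.171), although it passed with the authors' deposited p after adjustment (0.0142).

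Electron transfer flavoprotein takes the electrons of the dehydrogenases. Etfa (chromosome 9, 55454508 to 55512243, minus strand), its alpha subunit, had 21.4, 20.7 and 20.2 kb in control and 11.9, 9.51 and 8.45 kb in mutant. The controls were nearly alike and every mutant library was far below them, at 0.48 of the control level (log2 fold change -1.07, SE 0.16, limma adjusted p = 0.000284). Etfdh, the oxidoreductase that passes the electrons to ubiquinone, had 94.0, 105.3 and 101.2 kb in control and 68.8, 65.6 and 66.7 kb in mutant. It was also lower throughout (-0.58, SE 0.09, limma adjusted p = 0.000284). Etfb, the beta subunit, was at -0.40 (limma adjusted p = 0.00879, but 0.0700 with the authors' deposited p), and 53% of its exon bases also belong to the annotated gene Gm45233 on the same strand, so its coverage is uncertain.

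Among the enzymes of peroxisomal oxidation the genes spread widely, from the lowest log2 fold change of the list to 0.0043 in Phyh. Acox2 (chromosome 14, 8225511 to 8259353, minus strand) encodes the oxidase for branched chains and bile acid intermediates. Its coverage was 13.8, 11.7 and 12.9 kb in control and 3.24, 0.713 and 2.003 kb in mutant. The controls were close together and the mutant libraries low and unequal, with mut2 lowest. The mean was 6.44-fold lower, from 12.8 ± 1.03 to 1.99 ± 1.26 kb (log2 fold change -2.94, SE 0.45, limma adjusted p = 0.000310). Its mutant mean lay under the limit of the table, so a gene as low in both groups would not be listed, and its size is given as a description only. The log2 fold change shrank to -2.32 when mut2 was left out and to -2.30 with 1000 bases in place of 1 as the pseudocount. Its promoter is shown for this difference (RefSeq, GRCm38.p6, chr14:8258970-8259269, minus strand). This window also lies inside the GENCODE M21 coordinates of the gene. From a second RefSeq start the marked site is 236 bases upstream. Capitals mark the only match to a looser form of the direct repeat bound by PPAR alpha with its RXR partner, GGNCA then NA then GGNCA, 56 bases upstream of the RefSeq start used here.
Acox2: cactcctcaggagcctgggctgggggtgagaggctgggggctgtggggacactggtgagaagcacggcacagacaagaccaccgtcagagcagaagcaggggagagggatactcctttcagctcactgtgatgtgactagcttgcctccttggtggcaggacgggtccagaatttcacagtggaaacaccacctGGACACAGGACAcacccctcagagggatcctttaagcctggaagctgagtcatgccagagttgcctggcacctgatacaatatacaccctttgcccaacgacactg

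Acaa1a and Acaa1b encode peroxisomal ketoacyl-CoA thiolases. Acaa1b (chromosome 9, 119148023 to 119157093, minus strand) had 52.7, 51.3 and 50.4 kb in control and 28.1, 16.4 and 21.1 kb in mutant. The controls were tight and the mutant libraries ranged widely below them (log2 fold change -1.27, SE 0.17, limma adjusted p = 0.000110). Acaa1a fell less, from 109.8 ± 8.27 to 77.5 ± 15.0 kb (-0.52, SE 0.13, limma adjusted p = 0.00819, but 0.0766 with the authors' deposited p). The longest coding transcripts of the pair were identical at 96% of 1450 aligned bases, so how their reads were divided is uncertain and the difference between them was not tested. Of the exon bases of Acaa1b 11.4% also lie in exons of Dlec1 on the opposite strand, which fell as well (-1.40).

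Ehhadh, the bifunctional enzyme for straight chains, had 28.9, 30.2 and 37.6 kb in control and 22.6, 14.5 and 18.9 kb in mutant. Its groups did not overlap (log2 fold change -0.80, SE 0.17, limma adjusted p = 0.00279, but 0.0577 with the authors' deposited p). Amacr, the racemase that prepares branched chains for oxidation, was at -0.75 and Scp2, a thiolase and sterol carrier gene, at -0.34, both with every mutant library lower. The call of Scp2 was lost without con1 (0.0623) or con3 (0.0561) and with the authors' deposited p (0.0735). The other bifunctional enzyme gene, Hsd17b4, which serves branched chains and bile acid precursors, went from 93.7 ± 1.28 to 85.04 ± 6.43 kb with non-overlapping groups and did not pass (-0.14). Acox3, a second branched-chain oxidase gene, at -0.09, and Phyh, the phytanoyl-CoA hydroxylase of alpha-oxidation, at 0.00, overlapped between groups and did not pass.

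Catalase, which breaks down the hydrogen peroxide that the oxidases make, was abundant and slightly lower. Cat had 162.7, 180.8 and 166.8 kb in control and 153.7, 140.4 and 136.7 kb in mutant. Every mutant library was lower, by 15.6% on average (log2 fold change -0.24, SE 0.08, limma adjusted p = 0.0333). The call was lost under 9 of 15 alternatives, over a range of 0.0133 to 0.147, and without any of con1 (0.0568), con2 (0.147), con3 (0.0594), mut2 (0.0719) or mut3 (0.104). The carnitine acyltransferases Crat (0.03) and Crot (-0.06), which release shortened chains from the peroxisome and in the case of Crat also act in mitochondria, did not pass, and neither did the membrane transporter Abcd3 (-0.02), which imports branched and dicarboxylic acyl-CoA.

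Within the mutant group the highest and lowest libraries were counted. Over all 45 genes mut1 was highest in 20 and mut2 lowest in 21, and the shares over the whole table were not counted. Coverage was highest in mut1 for 9 of the 12 peroxisomal enzymes and lowest in mut2 for 9 of 12, whereas for the 17 mitochondrial enzymes mut1 was highest in 7 and mut2 lowest in 6. The summed proximal tubule markers were 1634, 1347 and 1321 kb in mut1 to mut3. The median coefficient of variation among the 45 genes was 7.1% in control and 9.66% in mutant, near the 8.53% and 11.1% of all genes.

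**Figure D3:**
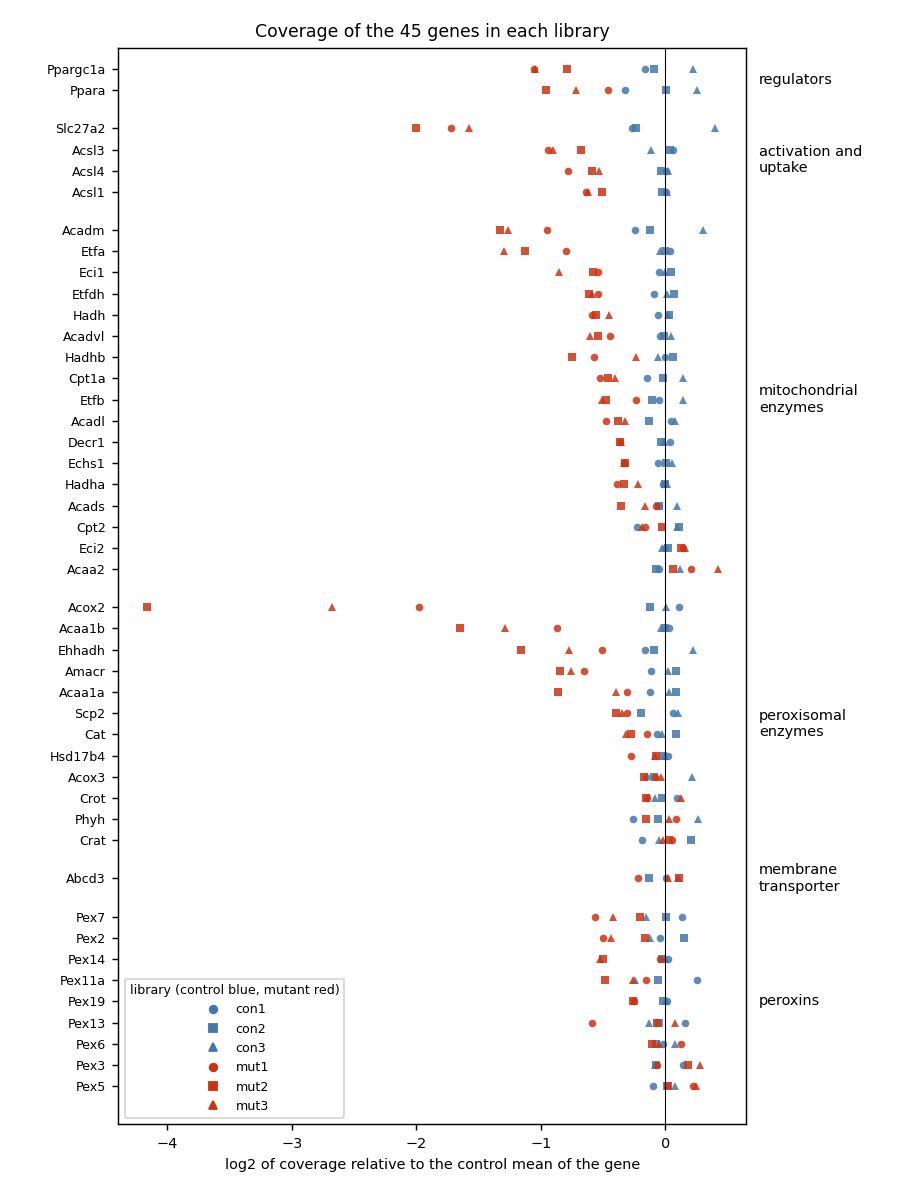
Coverage of each of the 45 genes in every library, as the log2 of the value over the control mean of that gene (x axis), grouped by class and ordered by log2 fold change. Blue points are control and red points mutant libraries, and the red points lie left of the blue for 32 genes. The spread of red points is widest for Acox2, from 0.713 kb in mut2 to 3.24 kb in mut1.

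The peroxins spanned a narrow range of changes. Of the 6 genes of matrix protein import 2 fell (33.3%, beside 24.6% of all genes). Their calls were fragile, that of Pex2 lost under 8 of 15 alternatives (adjusted p of 0.00919 to 0.13 by limma or the deposited p) and that of Pex14 under 9 of 15 (0.00287 to 0.16). Pex2, a subunit of the ubiquitin ligase that recycles the import receptor, had 51.5, 58.7 and 48.5 kb in control and 37.4, 47.3 and 39.0 kb in mutant, with con3 just above mut2 (log2 fold change -0.36, SE 0.12, limma adjusted p = 0.0286). Pex14, part of the docking site of the receptor, had 43.3, 41.99 and 42.5 kb in control and 41.3, 30.1 and 29.7 kb in mutant, with mut1 close to the controls (-0.36, SE 0.13, limma adjusted p = 0.0477). Of its exon bases 28.3% also lie in the annotated antisense gene Gm17029, so its coverage is uncertain. Pex7, the receptor for the N-terminal targeting signal, was lower in every mutant library and just missed the threshold (-0.39, limma adjusted p = 0.0565), which it crossed under 5 of 15 alternatives (0.0124 to 0.0487). Pex5, the receptor for the C-terminal signal (0.17), Pex13, of the docking site (-0.19), and Pex6, an ATPase of receptor export (-0.01), overlapped between groups.

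In membrane assembly, Pex19, which carries newly made membrane proteins, had 179.4, 176.2 and 178.4 kb in control and 149.4, 148.5 and 149.9 kb in mutant. Both groups were very tight and lay apart, a fall of 16.1% (log2 fold change -0.25, SE 0.07, limma adjusted p = 0.0153). Pex3, its docking partner, had 17.6, 15.1 and 15.1 kb in control and 15.2, 18.0 and 19.4 kb in mutant, with overlap and no call (0.14, limma adjusted p = 0.475). Pex11a, which acts in peroxisome proliferation and is a known PPAR alpha target, was among the least covered of the 45 genes at 5.22 ± 0.93 and 4.26 ± 0.489 kb and did not pass (-0.28, limma adjusted p = 0.386). The 3 falls among the peroxins rest on small changes. Leaving out con1 or con2 left 0 of them, at adjusted p = 0.0610 and 0.0516 for Pex19, 0.0626 and 0.130 for Pex2, and 0.118 and 0.10 for Pex14 by limma, and without mut3 1 peroxin fell.

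Divided by exon length, levels can be set side by side between genes, within the limits of the annotation. In control kidneys the depth was highest for Etfb (89.8 ± 8.3 per exon base), Acaa2 (86.6 ± 6.3) and Cat (65.1 ± 3.6), of which the first 2 did not differ beyond their spread. The rank of Etfb is uncertain, since 53% of its exon bases also belong to Gm45233 on the same strand. Next came Acads (49.4 ± 3.0) and Pex19 (46.7 ± 0.43), which did not differ beyond their spread either. The lowest were Hadhb (2.93 ± 0.12), Pex11a (1.64 ± 0.29) and Pex7 (1.47 ± 0.15). Exon length is the union over all GENCODE M21 transcripts, 12092 bases for Pex7 and 6595 for Hadhb, and a union that includes rarely used exons lowers the depth. Hadha has a longer union of 8730 bases and a depth of 29.1 ± 0.32, and the cause of its difference from Hadhb was not tested. Acox2, with the lowest log2 fold change, had a depth of 3.46 ± 0.28 in control.

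RefSeq promoters of GRCm38.p6 matched 38 of the 45 genes, 43 windows in all, 25 of the genes among those that fell and 13 among the others. Motifs were searched on both strands and chosen after the values were known. The hexamer AGGTCA was in 18.6% of these windows and in 16.3% of all 32851 windows, and 7 of the 8 genes holding it fell, against 25 of all 38 (Acadm, Acadvl, Cat, Cpt1a, Echs1, Scp2 and Slc27a2, the other being Phyh). The direct repeat, AGGTCA then any base N then AGGTCA, of which the hexamer is a part, was in none of the 43 windows and in 0.0396% of all. The looser repeat shown for Acox2, which includes the direct repeat, was in both Acox2 windows only, which overlap and share the same site (0.801% of all). The estrogen-related receptor site TCAAGGTCA was in none (0.423% of all), the HNF4 core CAAAGTCCA in that of Abcd3 (0.475% of all) and the NRF1 core, GCGCA then N then GCGC, in those of Abcd3, Etfb, Etfdh and Ppara, 9.3% of the windows against 4.6% of all. These are matches of letters in short windows, not measured binding.

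Other genes of the same pathways were counted from 6 further lists. Of 25 measured genes of mitochondrial oxidation and carnitine handling 13 fell and 2 rose, with a median log2 fold change of -0.30. The lowest log2 fold changes were in the medium-chain acyl-CoA synthetase genes Acsm5 (-2.67), Acsm1 (-2.62) and Acsm2 (-2.25), which lost their calls with the authors' deposited p (0.122, 0.0513 and 0.0508). Among those that rose was Cpt1c, named after its values were seen, a mainly neuronal relative of Cpt1a (16.3 ± 1.57 to 31.6 ± 3.60 kb, 0.96). Of all genes 24.6% fell and 21.5% rose, and the rises were 8% of this list. Acsm1, Acsm5 and Fabp3 were in the table through the control group alone, and without them 10 of 22 fell (24.1% of genes with both means above the limit).

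Of 38 measured genes in the list of other peroxisomal enzymes and membrane proteins 20 fell and 4 rose, at a median of -0.37. These were 52.6% and 10.5% of the list, beside 24.6% and 21.5% of all genes. The lowest log2 fold changes were in Acot3 (-2.52), an acyl-CoA thioesterase, Hao2 (-2.36), a hydroxyacid oxidase, and Dao (-1.91), the D-amino acid oxidase. The call of Acot3 was lost with the authors' deposited p (0.0643). Acot3 and Pxmp2 were in the table through the control group alone, and without them 18 of 36 fell (24.1% of genes with both means above the limit). Among those that rose, named after their values were seen, were Abcd2 (0.94), which encodes a peroxisomal transporter of very long-chain acyl-CoA, and Slc27a1 (0.40) and Slc27a4 (0.41), fatty acid transport proteins that lie mainly outside peroxisomes. Abcd2 had 14.0, 14.7 and 11.5 kb in control and 23.5, 27.2 and 25.99 kb in mutant, with every mutant library far above the controls. The call of Slc27a4 was lost without con2 (0.0780), without the trend (0.0554) and with the authors' deposited p (0.123). That of Slc27a1 was lost without con1 (0.135), con3 (0.0572), mut1 (0.0718) or mut3 (0.0546), without the trend (0.0586) and with the authors' deposited p (0.101). Among 6 other measured peroxins only Pex16 passed, a fall in 16.7% of them beside 24.6% of all genes. Pex16, which acts in membrane assembly, was at -0.73 (limma adjusted p = 0.00419, but 0.0599 with the authors' deposited p). The rest lay between -0.27 and 0.02.

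Of 24 measured regulators and PPAR target genes 11 fell and 5 rose. The falls were 45.8% of this list (24.6% of all genes), and the rises were 20.8%, near the 21.5% of all genes. The lowest log2 fold changes were in Esrrb (-3.36), an estrogen-related receptor gene, Hnf4a (-1.80), a nuclear receptor gene of the proximal tubule that also stands among the tubule markers, and Cyp4a10 (-1.60), a fatty acid hydroxylase gene induced by PPAR alpha. Esrrb and Cyp4a10 were in the table through the control group alone, and without them 9 of 22 fell (24.1% of genes with both means above the limit). Among those that rose, named after their values were seen, were the PPAR targets Angptl4 (12.1 ± 3.14 to 24.2 ± 7.34 kb, 0.99) and Plin2 (48.9 ± 2.16 to 80.7 ± 4.61 kb, 0.72), the PPAR partner Rxra (0.46) and the corepressor Nrip1 (0.85). Angptl4 lost its call with the authors' deposited p (0.120). The PPAR paralogs Ppard (-0.07, limma adjusted p = 0.680) and Pparg (0.59, limma adjusted p = 0.0631) did not pass. None of the 3 measured fission genes passed with limma, adjusted or not, although Mff passed with the length trend removed (0.0271). Of 11 genes of fatty acid synthesis 5 fell (45.5%) and 1 rose (9.09%), beside 24.6% and 21.5% of all genes. The largest changes among them were in Me1 (-0.95), a malic enzyme gene that supplies NADPH, and Elovl5 (0.93), an elongase of polyunsaturated chains. Next was Elovl6 (-0.87), an elongase of saturated chains.

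**Figure D4:**
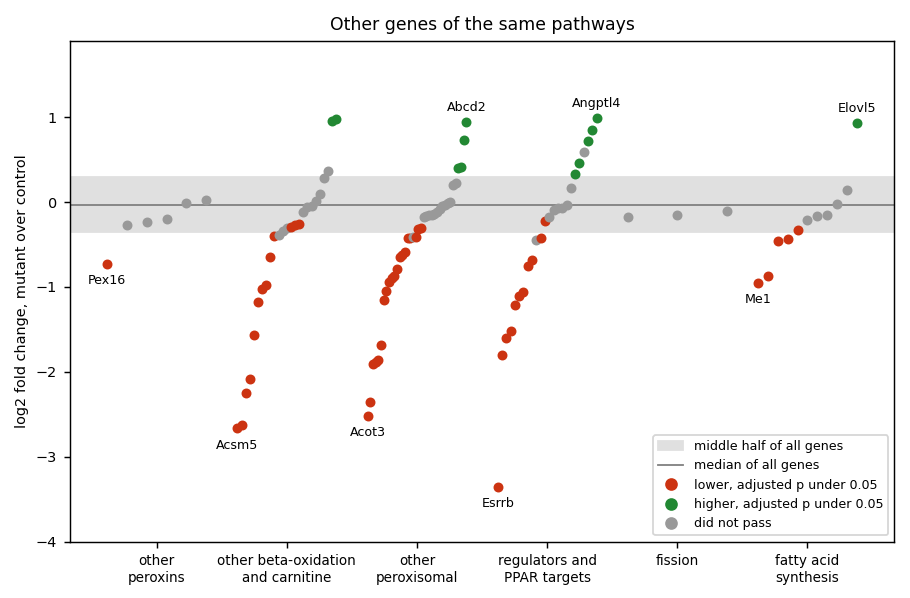
Log2 fold change (mutant over control, y axis) of other genes of the same pathways in 6 lists, red where they fell, green where they rose and grey where they did not pass. Each list except fission holds red points, from Esrrb at -3.36 upwards, and the green points reach 0.99 at Angptl4.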

How the data were processed

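Total RNA of whole kidneys was depleted of ribosomal RNA and sequenced from Ion Total RNA-seq v2 libraries, per the labels' protocols. The submitters' processing notes name mm10 and bedtools. The aligner, annotation, strand use and counting rule are not given in the sources used here. In their table the authors deposited a coverage signal per gene and library, scaled to a common total (976.284 to 976.642 Mb) and not divided by gene length. Within a tolerance of 0.02, low values were whole multiples of a step per library, which gave the unscaled totals; these are bases, so the number of reads is unknown. The deposited table holds genes with a higher group mean above 3402 units, a ratio of group means (fold), and p-values and q-values of the authors. The Benjamini-Hochberg adjustment of their p-values was made here and differs from their q-values. Column names show a group but not which kidney, so each was assigned to its group. Whether kidneys were of separate litters was not given, and p-values measure the spread between these samples.

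The test was limma 3.58.1 (R 4.3.3) on log2(value + 1) (empirical Bayes, mean-variance trend, two-sided, Benjamini-Hochberg over 13203 genes, threshold 0.05; a filter of values above 1 in at least 3 libraries removed 0 genes) after a test on simulated data. Symbols were matched to GENCODE M21 (mm10) for coordinates and exon length, 12462 directly and 656 by older symbols. The genes, lists and alternatives were chosen with earlier results of these data known. Genes given with all 6 values were the regulators and, per role, the called genes with the largest changes (up to 3 in roles of more than 4 genes, otherwise up to 2), plus those in the authors' list; Acaa2, Eci2, Ehhadh, Hadha, Hadhb, Pex3 and others outside this rule were added after their values were seen. Some further genes of the wider lists are counted but not reported here by name.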

Additional observations from a re-analysis of the deposited data

How the results depend on the processing

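Alternatives were a pseudocount of 1000 bases, trimmed-mean scaling, scaling without small RNA genes, quantile normalization, no variance trend and array weights. Others were genes at or above the 25th percentile of coverage and the authors' deposited p after Benjamini-Hochberg adjustment. The last were removal of a length trend and leaving out each library. Of the 29 genes that fell, 18 kept their call under each of these that gave a value, and no fall changed sign. The lost calls were those of Ppara, Acadl, Hadhb, Etfb, Ehhadh, Acaa1a, Scp2, Cat, Pex2, Pex14 and Pex19. The authors' deposited q-values were under 0.05 for each of these genes. With the authors' deposited p 3 peroxisomal enzymes and 1 peroxin fell, and quantile normalization also left 1 peroxin; the cause was not tested. Array weights, the length trend and the deposited p gave 1 mitochondrial enzyme that rose. Without 1 library, 0 to 1 mitochondrial enzymes rose, 11 to 13 fell, 5 to 7 peroxisomal enzymes fell and 0 to 3 peroxins fell. Of all genes 2528 to 3163 then fell and 2243 to 2667 rose, against 3243 and 2844 with every library. The medians ranged from -0.45 to -0.37 for mitochondrial enzymes and -0.27 to -0.15 for peroxins. Genes near 0 that did not pass changed sign: Crat with the length trend removed (-0.0144), Phyh in scaling without small RNA genes (-0.0177) and by the deposited ratio (-0.0082), Abcd3 with trimmed-mean scaling (0.0144), quantile normalization (0.0612) and array weights (0.0292), and Pex6 with trimmed-mean scaling (0.0294) and quantile normalization (0.0341). Without 1 library their ranges were -0.0545 to 0.14 for Crat, -0.16 to 0.0265 for Acox3, -0.12 to 0.14 for Phyh, -0.0934 to 0.0721 for Abcd3, -0.0785 to 0.0403 for Pex6 and -0.32 to 0.0093 for Pex13. No paired analysis was possible because the groups share no replicate number. The 3 libraries per group and an unknown number of reads limit the precision for genes of low coverage such as Acox2 and Pex11a.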
